A study of Homo sapiens with 6 samples.

Results

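The DLX genes encode homeodomain transcription factors, and all 6 human members, DLX1 to DLX6, were examined here among 20015 protein-coding genes. They were taken by name, and the rule used no measured value, although they were chosen with earlier results of these data known. They were read as the pairs in which they lie on the chromosomes: DLX1 with DLX2, DLX4 with DLX3, and DLX6 with DLX5. For each gene, peaks were read where they overlapped 1500 bp on either side of any transcript start in GENCODE version 44 (hg38), called its promoter below. The data were 6 reChIP-seq libraries of parental, untreated NCI-H661 cells, a line of human lung large cell carcinoma, with 1000000 cells per reChIP. ReChIP binds sheared chromatin with a first antibody, releases it and binds it again with a second, so that the reads are meant to come from fragments that carry both targets. K4–K119 libraries took H3K4me3 first and H2AK119ub second, K119–K4 libraries took the reverse order, and IgG–IgG libraries used nonspecific rabbit IgG in both steps, with 2 biological replicates of each. All libraries came from the same line, and the peak lists hold no expression values, so the labelled cell type was not checked against marker genes. Libraries with IgG as the second antibody after a specific first one were not analysed here, and how many fragments with 1 target were carried over was not tested. In such bulk chromatin, more cells carrying both marks and more marked fragments per cell cannot be told apart.

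DLX proteins are related to Drosophila Distal-less and pattern the forebrain, the branchial arches, the limbs and the skeleton. The genes of each pair are transcribed toward each other and share enhancers, and in many adult tissues they are silent. H3K4me3 marks the starts of active and poised genes, and H2AK119ub is laid down by Polycomb repressive complex 1, which is known for holding developmental regulators in check, DLX genes of stem cells among them. Both marks collect at CpG-rich promoters.

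The start regions of DLX1, DLX2 and DLX6 are shown because these were the 3 of 6 members that matched the RefSeq promoter table. The first pair carried the largest signals of the family and DLX6 close to none outside 1 library, although all are rich in CpG. The 300 bases shown run from 250 before to 50 after the RefSeq start in GRCh38.p14, in the direction of transcription, with each CG in capitals.
DLX1 (chr2:172085257-172085556, plus strand): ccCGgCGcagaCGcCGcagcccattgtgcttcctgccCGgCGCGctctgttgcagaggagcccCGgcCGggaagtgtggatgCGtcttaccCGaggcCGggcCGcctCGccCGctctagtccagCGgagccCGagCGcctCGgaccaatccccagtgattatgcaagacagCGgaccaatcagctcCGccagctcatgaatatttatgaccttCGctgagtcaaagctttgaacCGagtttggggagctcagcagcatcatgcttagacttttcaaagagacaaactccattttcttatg
DLX2 (chr2:172102851-172103150, minus strand): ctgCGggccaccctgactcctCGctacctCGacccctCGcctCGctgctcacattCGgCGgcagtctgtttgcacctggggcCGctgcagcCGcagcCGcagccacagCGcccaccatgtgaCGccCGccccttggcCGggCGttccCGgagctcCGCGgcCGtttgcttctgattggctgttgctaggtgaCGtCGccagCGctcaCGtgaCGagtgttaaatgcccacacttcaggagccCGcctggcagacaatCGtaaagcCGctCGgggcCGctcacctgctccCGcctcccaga
DLX6 (chr7:97005303-97005602, plus strand): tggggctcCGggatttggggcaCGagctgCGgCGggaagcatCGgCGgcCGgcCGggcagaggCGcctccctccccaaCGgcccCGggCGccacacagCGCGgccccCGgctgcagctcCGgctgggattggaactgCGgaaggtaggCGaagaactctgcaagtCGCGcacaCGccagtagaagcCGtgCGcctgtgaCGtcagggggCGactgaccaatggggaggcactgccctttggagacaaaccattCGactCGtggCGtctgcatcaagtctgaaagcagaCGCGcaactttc
The DLX1 stretch holds 23 CG, that of DLX2 30 and that of DLX6 30, against a median of 14 over 35116 RefSeq promoters of the same length, of which 96.0% hold at least 1. CG reads the same on both strands. More CG than in 64.2% of these promoters lie in the DLX1 stretch, and more than in 77.6% in those of DLX2 and DLX6.

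The only K119–K4 peak at the DLX5 promoter came from replicate 2, held 5 reads and lay downstream of the start, and its 300 bases of hg38 are shown in the direction of transcription, again with CG in capitals.
DLX5 (chr7:97024001-97024300, minus strand): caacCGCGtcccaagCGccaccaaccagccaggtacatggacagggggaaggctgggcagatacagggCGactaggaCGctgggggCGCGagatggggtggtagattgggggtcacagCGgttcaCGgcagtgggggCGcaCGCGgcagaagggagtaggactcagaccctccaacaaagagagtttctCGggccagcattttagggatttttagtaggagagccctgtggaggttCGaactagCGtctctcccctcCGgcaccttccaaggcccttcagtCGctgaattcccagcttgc
It holds 17 CG.

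The authors called peaks in each library against input with EPIC2, and peaks with a log2 fold over input above 1 and an FDR below 0.05 are called kept peaks. Reads in kept peaks numbered 749681 to 1977663 in the reChIP libraries and 58980 and 65433 in IgG–IgG, and the median kept peak of every library held 2 reads. The lists give no reads outside peaks, so the sequenced depth is unknown and a library with no peak at a gene has no known level there. K4–K119 replicate 1 stood apart. Its folds imply a scale of 0.328 library reads per input read, against 3.62 to 4.74 in the other reChIP libraries, so a peak passed the fold filter there at fewer reads per input read.

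All 6 DLX promoters had a kept peak in at least 2 reChIP libraries, against 75.0% of all protein-coding genes, and no peak of either IgG–IgG library was listed at any of them. Without K4–K119 replicate 1 the count was 4 of 6, against 60.1%, since outside that library DLX3 and DLX6 had only kept peaks of 2 reads, in 1 library each. The genes of the first pair stood far above the rest. DLX1 held 579 and 407 reads in K4–K119, against 469 and 218 reads in K119–K4, and DLX2 held 517 and 458 reads in K4–K119, against 699 and 441 reads in K119–K4. Each of these values was higher than every value of DLX3, DLX4, DLX5 and DLX6, the highest of which was 147 reads.

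**Figure D1:**
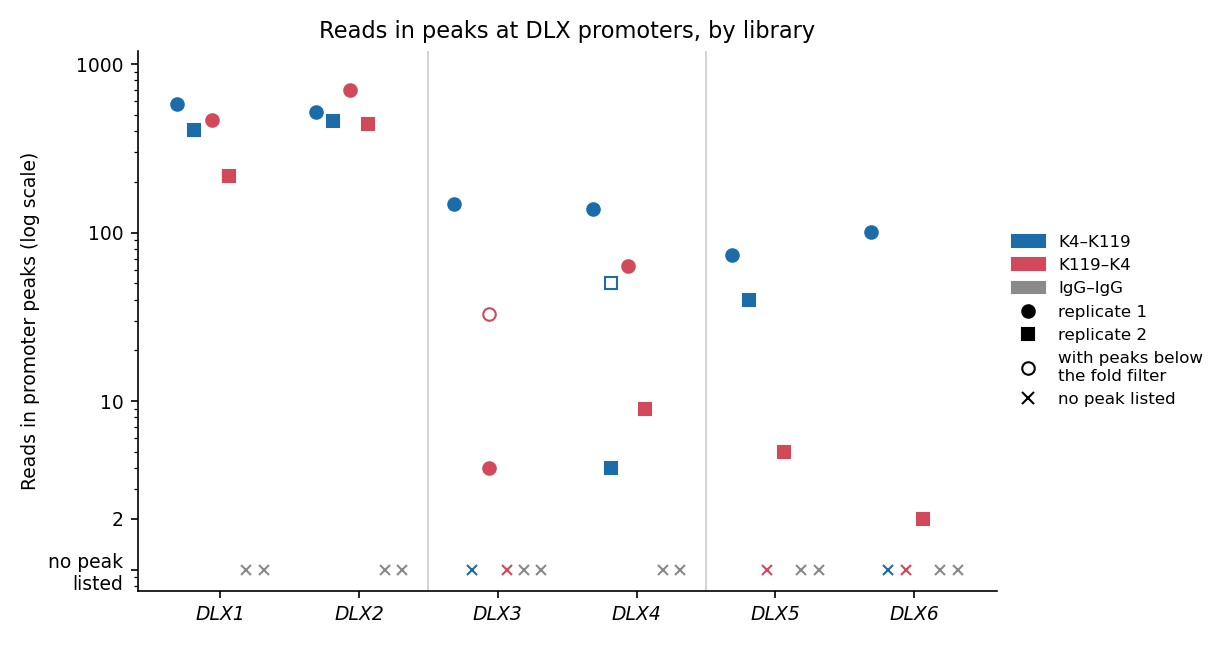
Reads in promoter peaks (log scale) of the 6 DLX genes in each library. Filled symbols are kept peaks, open symbols add peaks below the fold filter, and crosses mark libraries with no listed peak. DLX1 and DLX2 lie between 218 and 699 reads in all 4 reChIP libraries, and both IgG–IgG libraries have crosses throughout.

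The kept peaks fell unevenly over the libraries, as did those of all protein-coding genes. In K4–K119 replicate 1 all 6 genes had a kept peak, against 78.2% of all protein-coding genes, and in K4–K119 replicate 2 the count was 4 of 6, against 52.3%. In the K119–K4 replicates it was 4 of 6, against 64.1%, and 5 of 6, against 61.4%. The IgG–IgG replicates had 0 of 6, against 10.3 and 10.7% of all genes. DLX1, DLX2 and DLX4 had a kept peak in all 4 reChIP libraries, 3 of 6 genes against 34.3% of all, and without K4–K119 replicate 1 the same genes had one in the 3 others, against 35.4% of all. When a peak had to hold at least 10 reads, only DLX1 and DLX2 had a kept peak in all 4 libraries, against 19.7% of all genes, with or without K4–K119 replicate 1.

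DLX1, DLX2 and DLX4 had more reads in listed peaks in every reChIP library than in either IgG–IgG library, 3 of 6 genes against 40.5% of all protein-coding genes, and the count was also 3 without K4–K119 replicate 1. Since the IgG–IgG zeros are absent peaks and not measured levels, and the IgG–IgG lists hold fewer reads in all, this count says only where peaks were called. With absent peaks taken as 0, a two-sided exact permutation test over the 4 reChIP and the 2 IgG–IgG libraries gave p = 0.133 for each of these genes, the smallest p that the 15 splits allow, so this design cannot reach 0.05.

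A region is called reciprocal below where kept peaks of both replicates of an order shared more than 25% of both peaks and were joined, and the joined peaks of the 2 orders again shared more than 25% of both. It is counted for a gene where any part of it overlaps the promoter. Reciprocal regions lay at 2 of the 6 DLX genes, DLX1 and DLX2, against 20.9% of all protein-coding genes. Joined K4–K119 peaks lay at 4 of 6, DLX1, DLX2, DLX4 and DLX5, against 33.0%, and joined K119–K4 peaks at 3 of 6, DLX1, DLX2 and DLX4, against 30.0%. DLX3 and DLX6 had neither. A joined K4–K119 peak needs both replicates of that order, so it has no count without K4–K119 replicate 1. The count of 2 was the same without K4–K119 replicate 1. With a log2 fold above 2 required it was 1 of 6, against 6.27% of all protein-coding genes. DLX1 then had no region, with a fold of 1.52 in the second K4–K119 replicate and of 1.99 in the first K119–K4 replicate. At DLX2 no fold was below 2.16.

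DLX1, which with DLX2 directs the birth and migration of forebrain interneurons in mice, had among the widest reciprocal regions. Its region spans 7400 bp on chromosome 2 from 172082501 to 172089900 and ranks 15 of 4020 by width, against a median of 2100 bp. It covers the whole gene (172084740 to 172089677, plus strand), but both of its outer edges come from K4–K119 replicate 1. The promoter peaks of the other libraries ended before the end of the gene. They ended at 172089300 in K4–K119 replicate 2, and at 172089000 and 172088900 in K119–K4. The K4–K119 peaks reached farther than the K119–K4 peaks. In K4–K119 replicate 2 the peak ran from 2606 bp upstream to 3793 bp downstream of the canonical start at 172085507. K4–K119 replicate 1 had 2 peaks, of 183 and 396 reads, that left a gap of 300 bp around that start. In K119–K4 the peak began 1506 bp upstream in replicate 1 and 94 bp downstream in replicate 2. The 4 libraries shared 3200 bp from 172085701 to 172088900, with 168 CpG, which begins within exon 1, holds exon 2 and ends in exon 3.

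DLX2 had a narrower region and more reads per kb. It spans 4600 bp from 172098801 to 172103400, ranks 127 of 4020 by width and contains the gene (172099438 to 172102900, minus strand). Only the peak of K119–K4 replicate 2 reached the end of the gene at 172099438. The peaks held 148 and 124 reads per kb in K4–K119, against 225 and 108 reads per kb in K119–K4. At DLX1 the same measure was 81.5 and 63.6 reads per kb in K4–K119, against 93.8 and 66.1 reads per kb in K119–K4, below DLX2 in each library. Both K119–K4 peaks of DLX2 reached its start at 172102900 and no farther, in the 100-bp bins of the lists. Both K4–K119 peaks went 500 bp farther upstream, over the start of the divergent transcript DLX2-DT at 172103006 and over the whole DLX2 sequence shown above. The shared part of the 4 peaks was 3000 bp from 172099901 to 172102900, with 215 CpG, and covers exons 1 and 2 and most of exon 3.

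**Figure D2:**
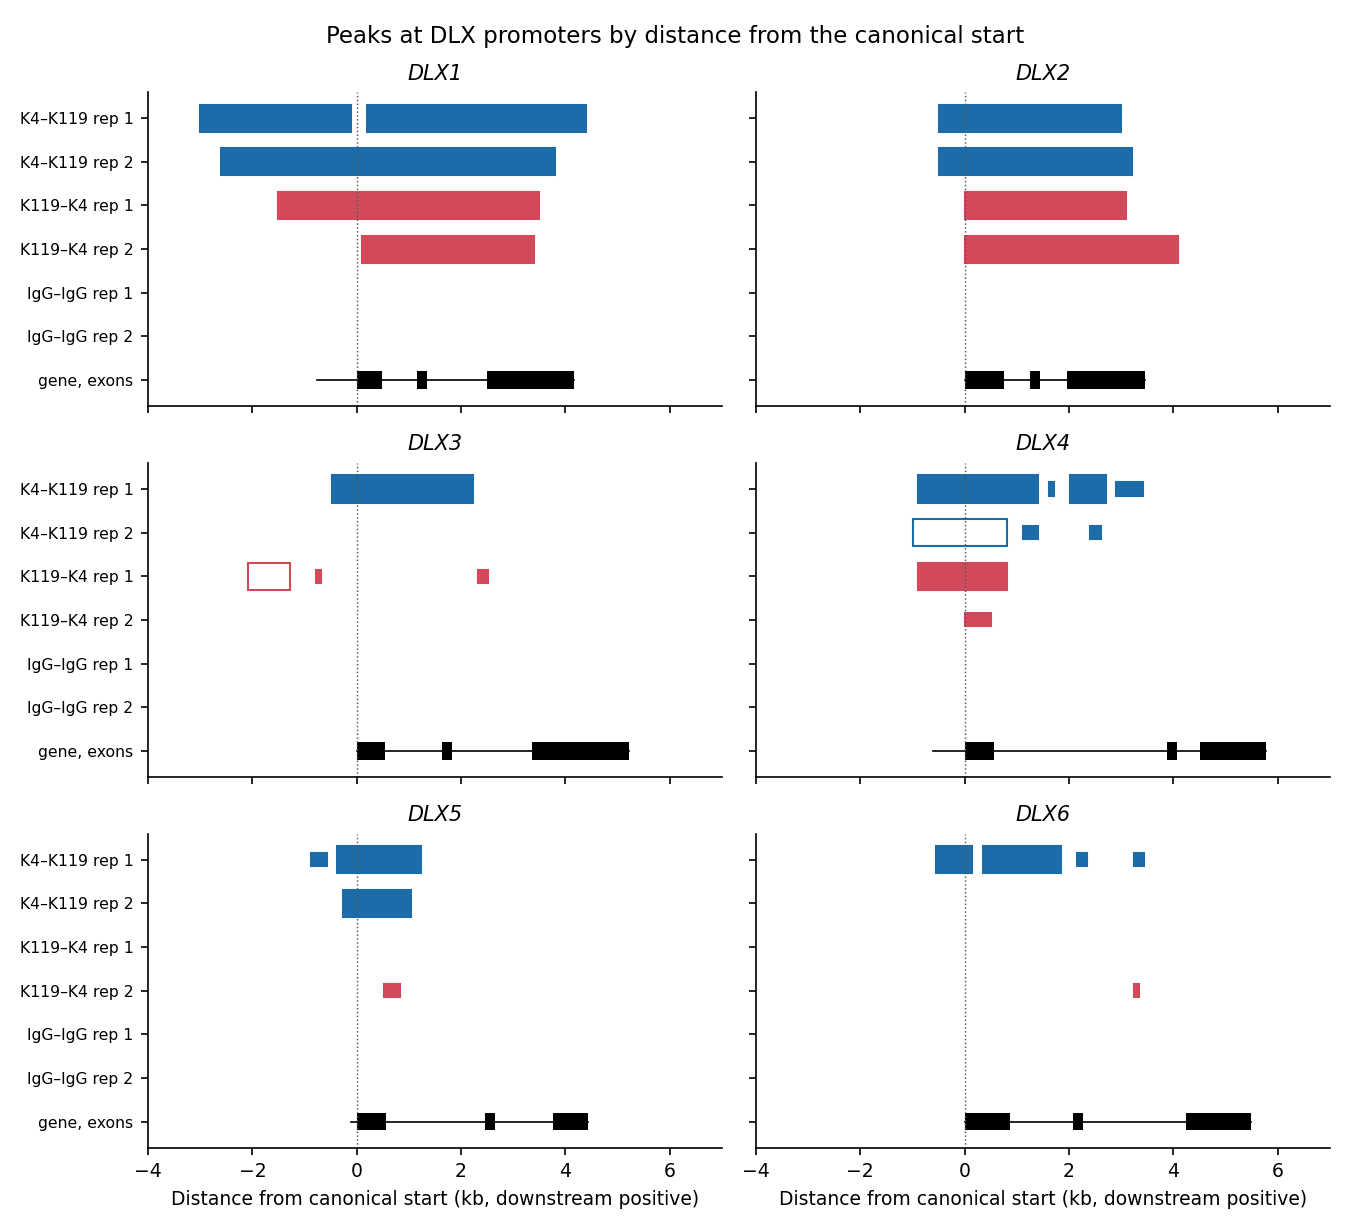
Peaks at each DLX promoter by distance from the canonical start (kb, downstream positive), 1 line per library, over the gene with its exons in black. Filled bars are kept peaks, open bars peaks below the fold filter, and thin bars peaks of fewer than 10 reads. Peaks of DLX1 and DLX2 extend over most of the gene in all 4 reChIP libraries, and in K4–K119 the largest peaks of DLX5 and, in replicate 1 alone, of DLX6 lie within 2 kb of the start.

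By reads, both genes stood near the top of all genes with a kept peak in the same library. DLX1 had more reads than 98.7 and 99.4% of such genes in K4–K119, against 96.7 and 97.4% in K119–K4. DLX2 had more than 98.1 and 99.6% in K4–K119, against 99.0 and 99.6% in K119–K4, and its best rank was 40 of 10462 genes, in K4–K119 replicate 2. The median over such genes was 85 and 25 reads in K4–K119, against 46 and 8 reads in K119–K4. DLX4 had more reads than 27.7 to 69.4% of such genes over the 4 libraries, and DLX5 than 38.8 to 57.2% over the 3 in which it had a kept peak.

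**Figure D3:**
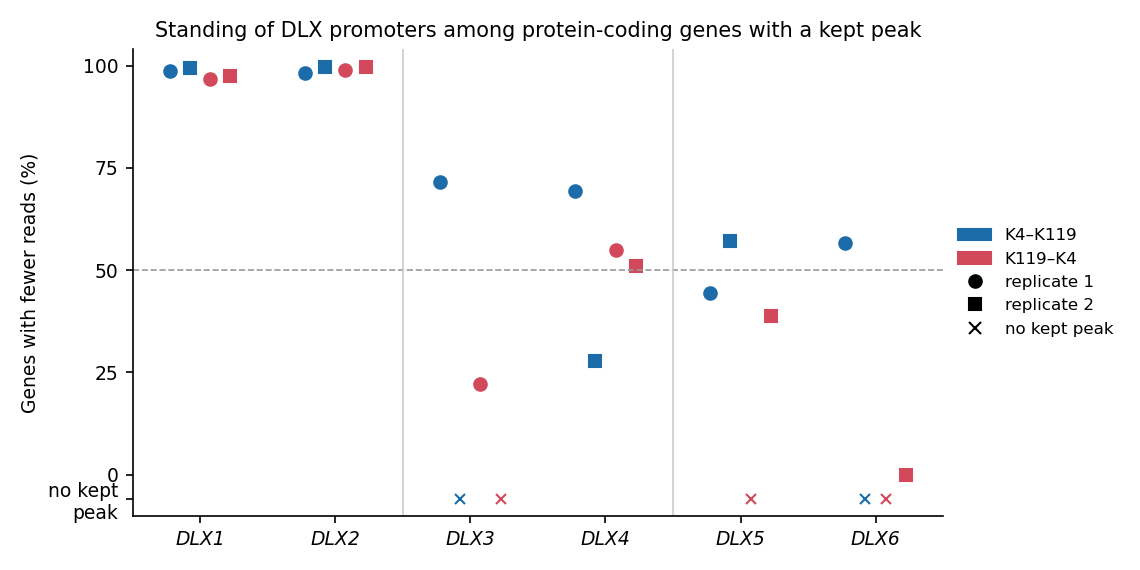
Percent of protein-coding genes with a kept promoter peak that had fewer reads than each DLX gene, by reChIP library. The dashed line is 50%, and crosses mark libraries in which the gene had no kept peak. DLX1 and DLX2 lie above 96% in all 4 libraries, and the other members between 0 and 71.6%.

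Whether the order of the antibodies mattered was tested on the reads of all 4020 reciprocal regions with edgeR. In CPM, the reads of a region scaled to all reads over the regions with TMM normalization, DLX1 had 775 and 1020 in K4–K119, against 629 and 699 in K119–K4, so the orders did not overlap. The log2 ratio of K4–K119 over K119–K4 was 0.43 (SE 0.21, edgeR adjusted p = 0.274, 2 replicates per order). DLX2 had 692 and 1150 in K4–K119, against 938 and 1410 in K119–K4, values that overlap, with a log2 ratio of -0.35 (SE 0.29, edgeR adjusted p = 0.509). In this fit, which has no term for the replicate number, neither of the 2 DLX regions was called, against 0.373% of all regions. At an unadjusted p below 0.05 and by DESeq2 the count was also 0 of 2, with 830 and 62 of all 4020 regions. With the replicate number as a block both DLX regions were among the 1010 of 4020 regions called. The labels, however, do not say that a number marks a shared batch. DLX1 changed direction when peak width entered as an offset, to -0.32, with the median of all regions at -0.29, and DLX2 stayed at -0.35. Of 283 other regions within 0.5 log2 units of its mean level, 96.1% had a lower ratio than DLX1 (median -0.32). For DLX2 it was 48.1% of 133 regions (median -0.34).

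**Figure D4:**
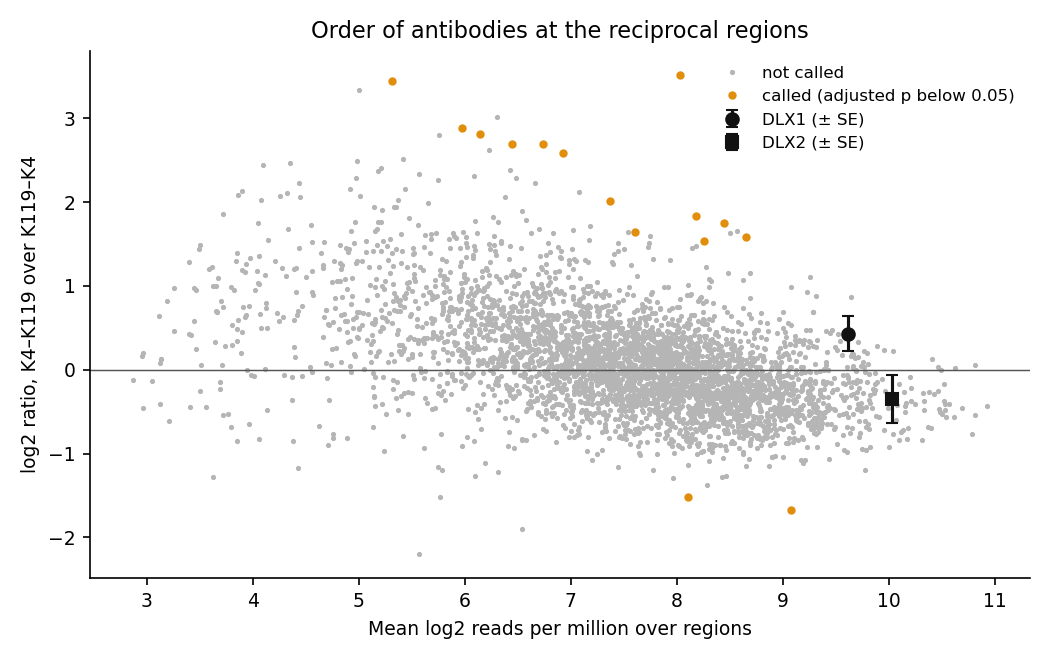
Log2 ratio of K4–K119 over K119–K4 against mean log2 CPM for 4020 reciprocal regions. Orange points are the 15 called regions, and black symbols are DLX1 and DLX2 with their SE. DLX1 lies above most regions of its level, and DLX2 among them.

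The ratio of DLX2 to DLX1 within a library does not depend on scaling between libraries. It was 0.893 and 1.13 by reads in K4–K119, against 1.49 and 2.02 in K119–K4, higher in both K119–K4 replicates. An exact permutation test gave p = 0.333 (two-sided), the smallest p that 2 against 2 libraries allow. By reads per kb it was 1.81 and 1.95 in K4–K119, against 2.4 and 1.63 in K119–K4, and the orders overlapped (two-sided exact permutation p = 1).

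DLX4, known for its place in placental and blood cells, came next. Its main peak lies over exon 1 of the canonical transcript, which starts at 49969190 on chromosome 17 (plus strand). K4–K119 replicate 1 had 121 reads there, from 49968301 to 49970600, and replicate 2 had 46 reads, from 49968201 to 49970000. The peak of replicate 2 had a log2 fold of 0.96, just under the filter, with an FDR of 5.43e-05. K119–K4 replicate 1 had 63 reads, from 49968301 to 49970000, and replicate 2 had 9 reads in 500 bp that begin 11 bp after the start. With that peak of K4–K119 replicate 2 left out by the filter, the kept reads of DLX4 were 139 and 4 in K4–K119, against 63 and 9 in K119–K4. The joined K4–K119 peak at DLX4 was then another one, 700 bp in its first intron that held 10 and 2 reads.

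Whether DLX4 counts as reciprocal therefore turned on the rules. With no filter on the fold it had a region of 2400 bp, from 49968201 to 49970600, and the family's count was 3 of 6, against 30.2% of all genes. It also had a region with any overlap of at least 1 bp, with more than 25% of either peak, and without K4–K119 replicate 2. In the order test over regions from peaks with no filter on the fold, its log2 ratio was 1.12 (SE 0.44, edgeR adjusted p = 0.194).

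DLX3, a regulator of skin, hair, teeth and placenta whose mutation causes tricho-dento-osseous syndrome, had 1 large peak. K4–K119 replicate 1 had 147 reads from 49993001 to 49995700, over exons 1 and 2 and the start at 49995224 (minus strand), and replicate 2 had no listed peak. K119–K4 replicate 1 had 2 kept peaks of 2 reads each and a peak of 29 reads, from 49996501 to 49997300, whose log2 fold of 0.61 did not pass the filter. That peak begins 1277 bp upstream of the start, beyond the edge of the K4–K119 peak at 476 bp, and a separate peak of 48 reads in K4–K119 replicate 1, from 49996801 to 49997700 and outside the promoter as taken here, overlaps it. K119–K4 replicate 2 had no listed peak.

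DLX5 and DLX6 act in branchial arch patterning, and DLX5 also in bone formation. DLX5 had kept peaks over exon 1 in both K4–K119 replicates, of 72 reads from 97023601 to 97025200 and of 40 reads from 97023801 to 97025100 on chromosome 7 (minus strand, start at 97024831). With a small peak of 2 reads, the totals of K4–K119 were 74 and 40 reads. K119–K4 replicate 1 had no listed peak, and replicate 2 had the 5 reads whose sequence is shown above, which begin 531 bp after the start. The order was not tested at DLX5, which had no reciprocal region.

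DLX6 had a kept peak of at least 10 reads in K4–K119 replicate 1 alone. It held 101 reads there in 4 peaks, the largest of 84 reads from 97005901 to 97007400, which begins 348 bp after the start at 97005553 (plus strand). K4–K119 replicate 2 and K119–K4 replicate 1 had no listed peak, and K119–K4 replicate 2 had 2 reads in 100 bp of the second intron. DLX3 and DLX6 were the 2 of 6 genes whose kept peaks of at least 10 reads came from K4–K119 replicate 1 alone, against 26.6% of all protein-coding genes. The part in this of the scale of that library, given above, was not tested.

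CpG content and reads ordered the members differently, mainly at DLX6. By mean reChIP reads in listed peaks, with absent peaks taken as 0, the order was DLX2, DLX1, DLX4, DLX3, DLX5 and DLX6. Within 1500 bp of the canonical start, DLX1 has 189 CpG, DLX2 173, DLX6 170, DLX4 144, DLX3 137 and DLX5 116, against a median of 115 over all protein-coding genes. DLX6 has 3 fewer than DLX2, yet no listed peak in the 2 libraries just named. In the tenth of genes by CpG that holds DLX1 and DLX2, 46.8% had a reciprocal region, and in that of DLX6 33.2%. The tenth of DLX3 and DLX4 had 26.3% and that of DLX5 16.9%.

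Between the genes of a pair, K4–K119 replicate 1 again differed from the other libraries. What its scale of library reads per input read, given above, contributed here was not tested. The 9760 bp between DLX1 and DLX2 contain forebrain enhancers known from mice. K4–K119 replicate 1 had 358 reads there in 4 kept peaks that lie wholly inside, and kept peaks covered 75.0% of the stretch. The largest, of 295 reads over 5400 bp, ran from 172094001 to 172099400, next to the end of DLX2. K4–K119 replicate 2 had 0 reads in peaks wholly inside this stretch, the K119–K4 replicates had 4 and 3, and IgG–IgG had 0 in both. In K119–K4 replicate 2 the DLX2 peak also ran into it, and 9.6% of the stretch was covered. The 9355 bp between DLX6 and DLX5, also known for enhancers, held 78 and 0 reads in K4–K119, 5 and 2 in K119–K4 and 0 in both IgG–IgG libraries. The 15045 bp between DLX4 and DLX3 held 4 and 0 reads in K4–K119, 4 and 9 in K119–K4 and 0 in both IgG–IgG libraries. From 20 kb before to 20 kb after each pair, no IgG–IgG peak was kept.

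**Figure D5:**
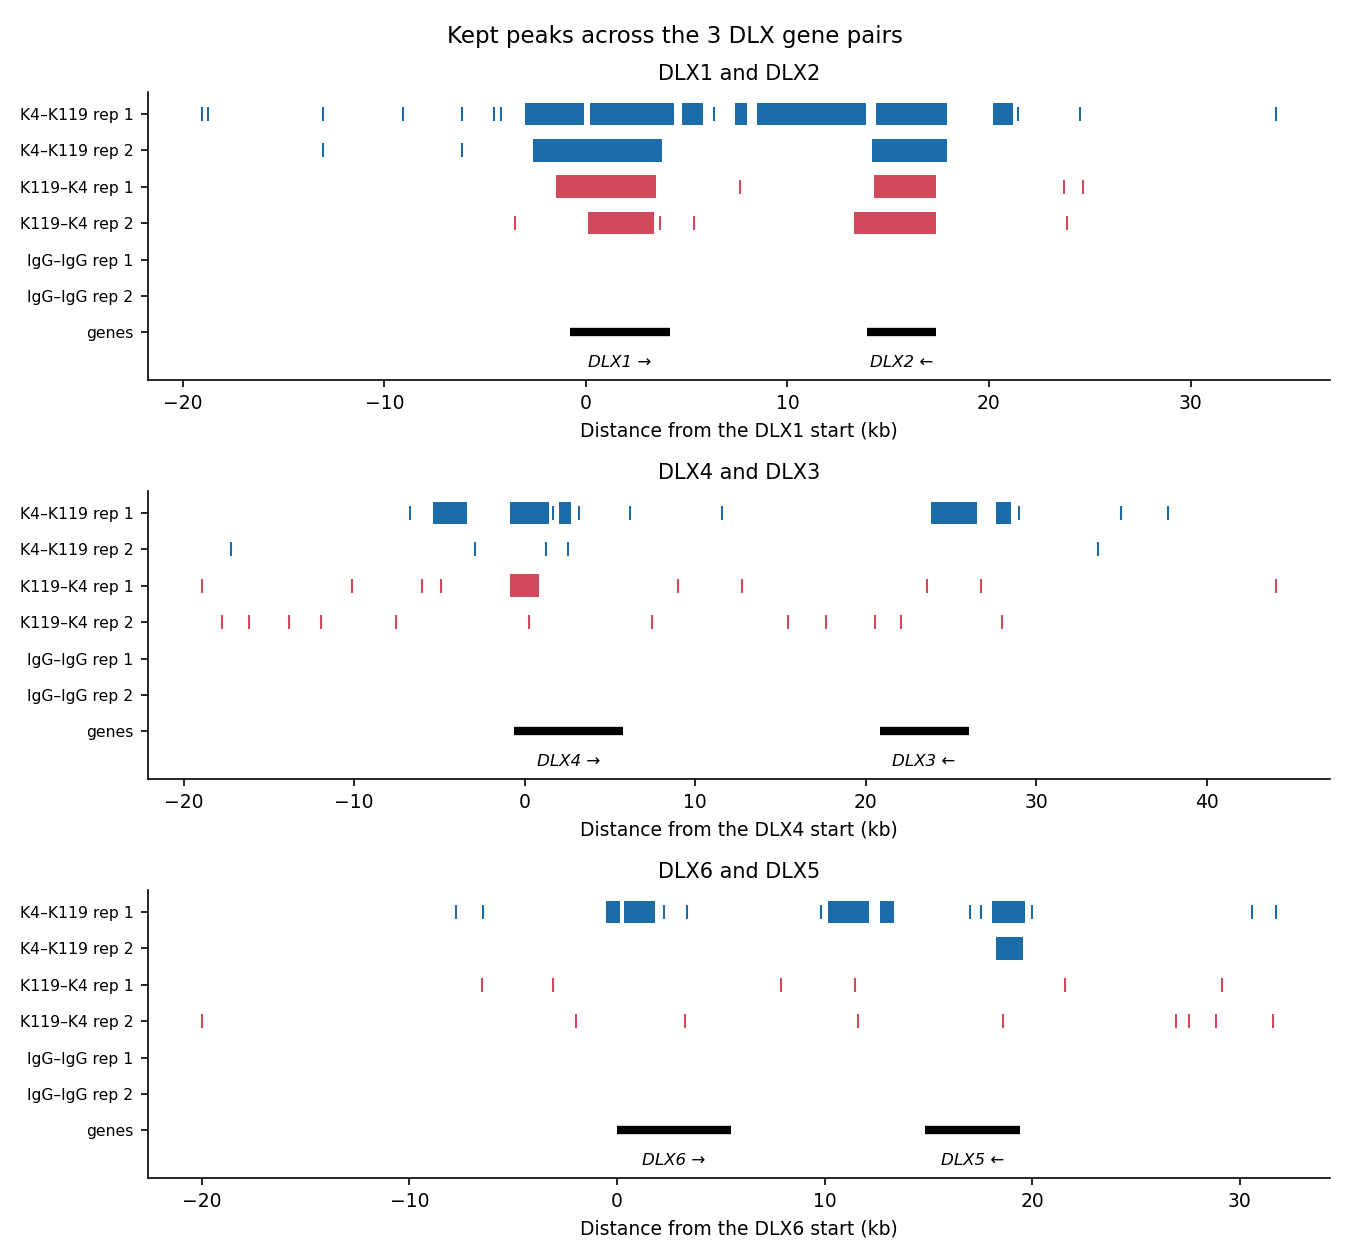
Kept peaks from 20 kb before to 20 kb after each DLX pair, by distance from the start of the left gene (kb), 1 line per library. Bars are peaks of at least 10 reads, ticks are smaller peaks drawn at 1 size, and black bars are the genes with the direction of transcription. Bars that lie wholly between DLX1 and DLX2 come from K4–K119 replicate 1 alone, and IgG–IgG lines are empty.

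None of the neighboring protein-coding genes, METAP1D, SLC25A12, ITGA3, PDK2 and SDHAF3, had a reciprocal region, against 20.9% of all protein-coding genes. With so few genes, no difference from that share can be read. Within 100 kb, protein-coding genes and long noncoding RNA genes whose names begin with DLX were read, and no others. Of these, only DLX2-DT had a reciprocal region, which is that of DLX2. The start of this long noncoding RNA gene is 0.106 kb from DLX2. METAP1D, a mitochondrial methionine aminopeptidase gene, held 54 and 2 reads in K4–K119, against 2 and 0 in K119–K4. SLC25A12, a mitochondrial carrier gene, held 76 and 4 reads in K4–K119, against 2 and 0 in K119–K4. Beside DLX3, the integrin gene ITGA3 held 237 and 79 reads in K4–K119, 2 and 60 in K119–K4 and 4 and 2 in IgG–IgG. The kinase gene PDK2 held 83 and 57 reads in K4–K119, 76 and 2 in K119–K4 and 2 and 0 in IgG–IgG. Near DLX5 and DLX6, the antisense gene DLX6-AS1 held 15 and 0 reads in K4–K119, against 4 and 3 in K119–K4, and SDHAF3 held 19 reads in K4–K119 replicate 1 alone. The reads carry no strand, so those of DLX2 and DLX2-DT cannot be told apart.

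Genes known to act with DLX genes were read from a list of 25: regulators upstream of them, homeodomain partners and targets, mostly known from mice. Reciprocal regions lay at 8 of 25 (32.0%), against 20.9% of all protein-coding genes, and these were 3 of 12 upstream genes, 2 of 3 partners and 3 of 10 targets. SP8, a zinc finger regulator of the forebrain and limb, held 452 and 309 reads in K4–K119, against 358 and 159 in K119–K4. MEIS2, a TALE homeodomain partner, held 487 and 392 reads in K4–K119, 482 and 411 in K119–K4 and 2 and 0 in IgG–IgG. These levels are near those of DLX1 and DLX2. RUNX2, the bone regulator downstream of DLX5 in mice, held 560 and 218 reads in K4–K119, against 403 and 145 in K119–K4. NRP2, a guidance receptor that DLX1 and DLX2 repress in mice, held 470 and 121 reads in K4–K119, 63 and 34 in K119–K4 and 0 and 2 in IgG–IgG. Lower levels were seen at MSX1, with 140 and 43 reads in K4–K119, against 42 and 12 in K119–K4, and at GSX1, with 145 and 26 reads in K4–K119, against 24 and 15 in K119–K4. SP7 and FGF8 were the others with a region. The FGF8 region is shared with the neighboring gene NPM3, and no joined K119–K4 peak lay at the FGF8 promoter itself.

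Among the 6861 genes outside the DLX loci with a kept peak in all 4 reChIP libraries, the profile most like that of DLX2 was that of TSC22D2. Likeness was the Euclidean distance over 8 values, log2 CPM and log2 bp of promoter peaks in each library. It was 0.59 for TSC22D2, 0.75 for GNB2, a G protein subunit gene, and 0.85 for SLIT2, an axon guidance ligand gene, against a median of 7.31. TSC22D2 held 424 and 373 reads in K4–K119, against 771 and 444 in K119–K4, and all 3 genes had reciprocal regions. Since profiles were matched on peaks of the same libraries, whether a matched gene has a region is not a separate result. For DLX4 the nearest were OSBPL3 at 1.08, LHX6 at 1.11 and TBC1D2B at 1.24, against a median of 5.72, and none of these had a reciprocal region. LHX6, an interneuron regulator and a DLX target in mice, held 159 and 3 reads in K4–K119, 78 and 10 in K119–K4 and 2 and 0 in IgG–IgG. Neither DLX5 nor DLX6 had a kept peak in all 4 libraries, so no profile was compared for that pair.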

How the data were processed

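Conditions and replicates of the 6 reChIP-seq libraries come from the titles and characteristics given by the submitters, and no library was left out. Per the submitters' processing notes, the authors used Trim Galore 0.6.6, BWA 0.7.13 (build hg38), SAMtools 1.9 and Picard 2.6.0, and they ran the EPIC2 caller on each library (bin size 100 bp). The deposited read and input counts of a peak are whole numbers, not scaled. The deposited p-value and FDR come from the authors' test against input within a library. In the deposited log2 column, the authors' caller gives reads over scaled input, and the deposited score derives from it.

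A peak was kept with an FDR below 0.05 and a log2 fold above 1, on the autosomes, X and Y only. The methods give the 25% overlap without naming the peak it refers to, and here it held for both. The authors' blacklist was not used here, and a gene's percentile by reads is among genes with a kept peak in that library. Peak start positions were converted to 1-based coordinates. Reads were summed over the peaks at a promoter. Regions were tested with edgeR 4.0.16 (TMM, quasi-likelihood, Benjamini-Hochberg over 4020 regions, threshold 0.05) on the reads of the contributing kept peaks, and libraries with exact permutation tests. Peak lists hold called reads only, so sums move with how much was called. DESeq2 1.42.0 was an alternative. The alternatives were other filters, overlaps, promoters, scalings, the replicate block and libraries left out. 1 more, a log2 fold above 4 in K4–K119 replicate 1, was chosen after seeing the data. The genes named are the members, up to 6 of the 25 listed genes with a region and the 3 nearest profiles. Protein-coding genes, and long noncoding RNA genes whose names begin with DLX, are also named where they start within 100 kb of a member. The members and lists were chosen with earlier results of these data known. Scripts were tested on simulated data. R 4.3.3, Python 3.11.15, numpy 2.4.6, pandas 2.3.3, scipy 1.17.1 and matplotlib 3.10.9 were used.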

Additional observations from a re-analysis of the deposited data

Results flagged for a closer look

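Reads in kept peaks between DLX1 and DLX2 numbered 358 in K4–K119 replicate 1, against 0 in both IgG–IgG libraries, and lay outside every promoter compared. Reads between DLX6 and DLX5 numbered 78 in the same library, against 0 in both IgG–IgG libraries. K4–K119 replicate 2 had 0 reads in both stretches. Each 0 stands for absent peaks and not for a measured level. K4–K119 replicate 1 had a scale of 0.328 library reads per input read, against 3.62 to 4.74 in the other reChIP libraries. The part of that scale in these reads was not tested.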

How the results depend on the processing

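The 6 genes rest on 2 replicates per order in 1 cell line, and the exact tests against IgG–IgG cannot reach 0.05. The peak lists limit what can be read, since no level is known where no peak was listed.

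The count of DLX genes with a reciprocal region was 2. It was 1 with a log2 fold above 2, where the share of all protein-coding genes was 6.27%, against 20.9% in the main setting. The count stayed within 1.5 times in 15 other settings, including a log2 fold above 4 in K4–K119 replicate 1. With each library left out it ran from 2 to 3, against 21.0 to 27.2% of all protein-coding genes. The count of DLX genes above both IgG–IgG libraries was 3, was 2 with at least 10 reads per peak, and ran from 3 to 4 with each library left out, DLX5 being added without K119–K4 replicate 1.

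The order test called 15 of 4020 regions, 13 higher and 2 lower in K4–K119. It called 62 with DESeq2 (34 higher, 28 lower), 71 with the peak width offset (1 higher, 70 lower) and 2 with at least 10 reads in every library. With each library left out it ran from 7 to 243: 7 without K4–K119 replicate 1, 52 without K4–K119 replicate 2 and 243 without K119–K4 replicate 1. The cause was not tested. The DLX1 log2 ratio reversed to -0.32 with the width offset and ran from 0.23 to 0.62 with each library left out, and that of DLX2 ran from -0.76 to -0.03. No DLX region was called with any library left out.

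The labels number the replicates of both orders without saying that a number marks a shared batch. The methods describe batches for the doxycycline comparisons and not for the reChIP libraries. Deviations of same-numbered libraries, each from the mean of its order, correlated at 0.377 over the 4020 regions. The value for crossed numbers, -0.377, is fixed by this and is not a separate result. Both libraries numbered 1 also held more reads over the regions, 719307 and 778146, against 381065 and 324137. What this contributed was not tested, and with 2 pairs the correlation does not establish pairing. With the replicate number as a block, 1010 regions were called (434 higher, 576 lower), the 2 DLX regions among them: DLX1 at 0.41 (edgeR adjusted p = 0.0152) and DLX2 at -0.37 (edgeR adjusted p = 0.0266).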
